A study of Saccharomyces cerevisiae with 16 samples.

Results

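PFK1, TDH2 and TDH3 are 3 genes of glycolysis, taken as the spots that name 1 of these symbols and no other gene. Each had 1 such spot, so the 3 genes are 3 of the 3127 genes measured. They were followed in the wild-type Saccharomyces cerevisiae strain CDY59, grown in YPD rich medium to an optical density of 0.5 and then kept with 200 mM hydroxyurea for 1, 2, 4 or 6 h. On each 2-colour slide, RNA of treated cells shared the hybridisation with RNA of the untreated culture at that density. For each time there was a pair of slides, named here by the channel that held the treated RNA, the channel 1 slide and the channel 2 slide. Each slide was read 2 times, and the titles call these readings faible and fort, French for weak and strong, with no further explanation. That makes 16 readings of 8 slides. The labels name no untreated culture of matched age and no second strain, so longer growth and hydroxyurea cannot be told apart.

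Glycolysis converts glucose to pyruvate, and a yeast cell growing in rich glucose medium draws most of its energy from it. PFK1 encodes the alpha subunit of phosphofructokinase, which commits fructose 6-phosphate to the pathway and is its best known point of allosteric control. TDH2 and TDH3 encode isozymes of glyceraldehyde-3-phosphate dehydrogenase, the enzyme that opens the lower part of the pathway, and TDH3 is the main one in growing cells. TDH1, the remaining isozyme, is best known from slowly growing and stressed cells. The isozymes have closely similar coding sequences, so RNA of one can hybridise to the spot of another, and their values are not independent measurements. Hydroxyurea inhibits ribonucleotide reductase and stalls DNA replication.

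All values are log2 ratios of treated over untreated RNA, relative to the median gene of the same reading. The base of the deposited logarithm is not stated and was taken as 2. The direction is likely and not established. The labels name no numerator, and the sign was set so that RNR2 and RNR4, textbook hydroxyurea-induced genes, were positive in the mean over the 4 times (2.69 and 2.55). On the channel 1 slide of 1 h RNR2 was at -0.98, against that direction, and RNR4 at 0.14, while on the other 7 slides both lay between 1.77 and 5.30. Without that slide the means were -0.41 for PFK1 (limma adjusted p = 0.0477), 0.58 for TDH2 (0.223) and 0.45 for TDH3 (0.363). Across genes, the channel 1 and channel 2 slides correlated at -0.0809 for 1 h, -0.0339 for 2 h, 0.504 for 4 h and 0.579 for 6 h. Genes are not independent replicates, and these values carry no test. Nothing in the labels shows that a pair of slides came from separate cultures, so the spread behind the p-values may be technical. The main model also removes a channel effect common to all times. Its p-values therefore measure only how much the distance between the slides of a time varied among times.

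PFK1 (YGR240C, chromosome VII) was lower in treated than in untreated RNA at 1, 4 and 6 h and higher at 2 h, relative to the median gene. At 1 h its log2 ratio was -0.13 on the channel 1 slide and -1.26 on the channel 2 slide. At 2 h the values were 1.12 and 0.24 in the same order. At 4 h they were -0.40 and -1.52, and at 6 h -0.18 and -0.94. After centring on the median gene the slides of a time thus shared a sign, with 6 slides below 0 and the 2 slides of 2 h above it. As deposited, without centring, the channel 1 slides of 1 h and 6 h stood above 0 instead, at 0.17 and 0.08, and the slides of these times differed in sign. At every time the channel 2 slide gave the lower value. Of all genes, 21.2%, 32.2% and 33.3% were below 0 on both slides at 1, 4 and 6 h, and 21.3% were above 0 on both at 2 h.

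In the mean over the 4 times PFK1 fell by 0.38 ± 0.08 (SE, 8 slides, limma adjusted p = 0.0136), to 0.766 of the untreated level if the base is 2. In this comparison 18.8% of all genes passed, 11.8% as lower (218 higher and 369 lower, against 816 and 226 on values as deposited). The mean joins times of opposite sign, and the spread among times is not part of its error. With each pair of slides averaged first, so that the times were the replicates, the adjusted p was 0.364. Without the channel 2 slide of 1 h, that of 4 h or the channel 1 slide of 6 h, the adjusted p was 0.0564, 0.0696 and 0.0590. Of 18 alternatives, 6 ended this call.

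By single times, PFK1 passed at 4 h, where the estimate was -0.96 ± 0.16 (SE, limma adjusted p = 0.0194), a level of 0.515 of the untreated one. At 4 h 2.81% of all genes passed, 2.21% as lower (19 higher and 69 lower). On values as deposited, where the median gene itself stood at 0.46 at 4 h, 668 of 726 calls were higher and PFK1 was at -0.49 without a call (adjusted p = 0.150). Without the channel 1 slide of 4 h the estimate was -1.06 (adjusted p = 0.152) and without the channel 2 slide -0.86 (adjusted p = 0.459). At 1 h the estimate was -0.70 ± 0.16 (adjusted p = 0.108, with 0.799% of all genes passing), at 2 h 0.68 ± 0.16 (adjusted p = 0.0569, 4.19%) and at 6 h -0.56 ± 0.16 (adjusted p = 0.0808, 6.01%). These 3 estimates did not pass.

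The planned comparison of late with early times, 4 and 6 h minus 1 and 2 h, gave PFK1 -0.75 ± 0.16 (SE, limma adjusted p = 0.129). No gene passed it (0% of 3127 genes by limma, 549 of which had an unadjusted p below 0.05). A further comparison, 2 h minus the mean of 1, 4 and 6 h, was added after the sign change of PFK1 had been seen and is no independent evidence of it. It gave 1.42 ± 0.18 (adjusted p = 0.0295) for PFK1, among 0.736% of all genes that passed, all of them higher at 2 h. The same comparison gave 1.17 ± 0.56 for TDH2 (adjusted p = 0.285) and 1.66 ± 0.49 for TDH3 (adjusted p = 0.135). For PFK1 the call ended in 8 of 17 alternatives, 6 of which left out 1 slide (adjusted p from 0.0667 to 0.120), namely either slide of 1 h, either slide of 6 h, or the channel 2 slide of 2 h or 4 h.

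**Figure D1:**
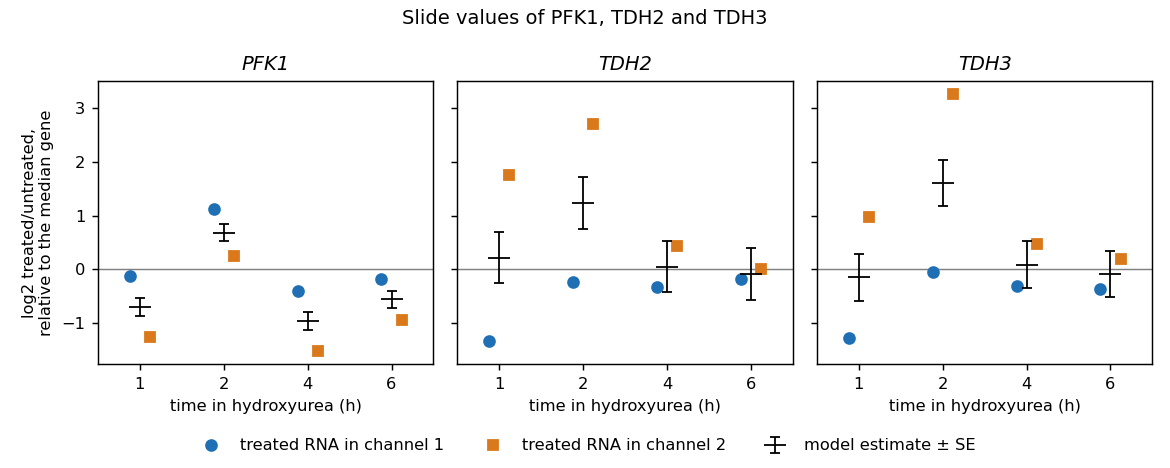
Log2 ratio of treated over untreated RNA (y axis, relative to the median gene) of PFK1, TDH2 and TDH3 at each time in hydroxyurea (x axis, h). Circles are channel 1 slides and squares channel 2 slides, and bars are the model estimate ± SE. Centred on the median gene, PFK1 lies above 0 on both slides at 2 h. It lies below 0 on the other 6 slides (4 of the 6 as deposited). With the faible and fort readings averaged, the TDH2 slides of 1 h lie 3.09 apart and those of 6 h 0.17.

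A second spot carries PFK1 together with PEX21, a peroxisomal import factor gene, in the spot annotation and was left out by the rule. Over the 16 readings it ran from -0.14 to 0.46. It thus showed neither the high values at 2 h nor the low values at 4 h of the PFK1 spot. Which of its genes the second spot measured was not tested.

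TDH2 (YJR009C, chromosome X) did not keep 1 sign across its slides. At 1 h its log2 ratio was -1.33 on the channel 1 slide and 1.76 on the channel 2 slide. At 2 h it was -0.24 and 2.70, at 4 h -0.33 and 0.43, and at 6 h -0.17 and 0.00. It was below 0 on all 4 channel 1 slides, and above 0 on 3 of the 4 channel 2 slides. These values average the faible and fort readings, which differed in sign on some slides. The faible and fort values were -0.97 and 0.49 on the channel 1 slide of 2 h. On the channel 2 slides they were 1.67 and -0.80 at 4 h, and 0.45 and -0.45 at 6 h. On the remaining slides the readings shared a sign. As deposited the channel 1 slide of 6 h was at 0.08 and the channel 2 slide at 0.35.

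TDH3 (YGR192C, chromosome VII) went the same way. Its values were -1.27 and 0.97 at 1 h, -0.05 and 3.26 at 2 h, -0.30 and 0.48 at 4 h, and -0.36 and 0.19 at 6 h, again with the channel 1 slide first. All 4 channel 1 slides were below 0 and all 4 channel 2 slides above it. These signs belong to the average of 2 readings, which often differed in sign. The faible and fort values were -0.60 and 0.50 on the channel 1 slide of 2 h. On the channel 2 slides they were 2.01 and -0.07 at 1 h, 1.90 and -0.93 at 4 h, and 0.82 and -0.45 at 6 h. On the remaining slides the readings shared a sign. Over the 8 slides TDH2 and TDH3 correlated at 0.957 and were never more than 0.79 apart, while PFK1 correlated with them at -0.142 and 0.00736. The 8 points share readings, spot neighbours and channel orientation, and the values are a description.

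Neither isozyme gene passed as a response to hydroxyurea. In the mean TDH2 was at 0.35 ± 0.24 (SE, 8 slides, limma adjusted p = 0.321), with a 95% interval from -0.21 to 0.91, and TDH3 at 0.36 ± 0.21 (adjusted p = 0.256), with an interval from -0.13 to 0.86. The highest estimates stood at 2 h, at 1.23 ± 0.48 for TDH2 (adjusted p = 0.208) and 1.61 ± 0.43 for TDH3 (adjusted p = 0.0837). Their intervals ran from 0.11 to 2.35 and from 0.62 to 2.59 before any adjustment for multiple tests. At 4 h TDH2 was at 0.05 and TDH3 at 0.09, and at 6 h both were at -0.09, with standard errors of 0.48 and 0.43. TDH2 at 1 h was at 0.22 and TDH3 at -0.15. The standard errors were 2 to 3 times the median of 0.180 for a single time, so a change of moderate size at a single time was not detectable with these slides.

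Late minus early times gave -0.74 ± 0.48 for TDH2 (adjusted p = 0.415) and -0.73 ± 0.43 for TDH3 (adjusted p = 0.374). These results moved with the slides, the scaling and the readings used. Without the channel 1 slide of 2 h, TDH3 passed at 2 h (2.67, adjusted p = 0.0169) and in the mean (0.63, adjusted p = 0.0315). On values as deposited, where the median gene itself stood at -0.21 at 2 h and 0.20 in the mean, TDH3 was at 1.39 at 2 h (adjusted p = 3.25e-05) and both passed in the mean (0.54 and 0.55). After quantile normalization TDH3 was at 0.91 at 2 h (adjusted p = 0.0461).

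The distance between the slides of a time was large for both isozyme genes in the early hours. The TDH2 slides were 3.09 apart at 1 h and 2.94 at 2 h, where the median distance of all genes was 0.40 and 0.55. Only 0.640% of genes lay further apart than TDH2 at 1 h and 1.28% at 2 h. For TDH3 the distances were 2.24 and 3.31, exceeded by 1.47% and 0.704% of genes. With the readings averaged, the TDH2 and TDH3 slides were 0.77 and 0.79 apart at 4 h, against 0.31 for the median gene. At 6 h they were 0.17 and 0.55 apart, against 0.34. On faible readings alone the TDH3 slides stood at -0.58 and 1.90 at 4 h, and -0.63 and 0.82 at 6 h (channel 1 first). Those of TDH2 stood at -0.60 and 1.67, and -0.23 and 0.45. On fort readings the channel 2 slide was the lower one at both times for both genes. PFK1 slides differed by -1.13, -0.88, -1.12 and -0.76 at 1, 2, 4 and 6 h (channel 2 minus channel 1). With the readings averaged, the TDH2 and TDH3 differences had the opposite sign at every time. Of all genes 10.2%, 28.5%, 2.97% and 12.7% lay further apart than PFK1 at these times, and the smallest share is that of 4 h, where PFK1 was called.

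The model's orientation coefficient measures this channel effect, as the mean of the channel 1 slides minus that of the channel 2 slides, divided by 2. It was -0.87 ± 0.24 for TDH2 (SE, limma adjusted p = 0.0455), -0.86 ± 0.21 for TDH3 (adjusted p = 0.0355) and 0.49 ± 0.08 for PFK1 (adjusted p = 0.0214). Of all genes 17.3% passed for this coefficient, 7.23% above 0 and 10.0% below. Without either slide of 1 h, 0 of 3127 genes passed by limma, though 877 had an unadjusted p below 0.05. The coefficients were then 0.46 for PFK1 (adjusted p = 0.0802), -0.65 for TDH2 (0.156) and -0.78 for TDH3 (0.127). Without either slide of 2 h 188 genes passed, and TDH2 (0.111) and TDH3 (0.0579) were not among them. The RNR2 and RNR4 values that set the direction also had negative coefficients, that of RNR4 at -0.83, and neither passed (adjusted p = 0.0701 and 0.0550).

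The faible and fort readings of the same slide gave different values for TDH2 and TDH3. In the faible readings, the deposited TDH3 ratio, before it was turned, was below 0 in 8 of 8 readings, from -4.14 to -0.22, whichever channel held the treated RNA. The deposited TDH2 ratio was below 0 in 7 of 8 faible readings, from -3.14 to 0.18. In the fort readings the TDH3 ratio was within 0.02 of 0 in 5 of 8 and the TDH2 ratio in 4 of 8. The channel 2 slide of 2 h stayed furthest from 0 for both, at -2.09 for TDH3 and -1.96 for TDH2. The pattern was looked for after these values had been seen.

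Values so close to 0 stand for nearly equal channels in the deposited ratio, whose background correction and normalization are not given. Over all 6912 spots, 3.05% of fort and 2.97% of faible values were within 0.02 of 0. Only 0.246% of spots had at least 4 fort readings there and 0.174% at least 5. TDH1 was within 0.02 of 0 in 6 of 8 fort readings, a count that 0.145% of spots reached. Of the faible readings, 0 of 8 were that close for TDH2 and TDH3 and 1 for TDH1. Among the other glycolytic and fermentation genes, the alcohol dehydrogenase gene ADH1 had 4 such fort readings and the enolase gene ENO1 3. PFK1 had 0 and the triose phosphate isomerase gene TPI1 1. Channel intensities were not used here, and whether these spots had reached the upper limit of the scanner was not tested.

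**Figure D2:**
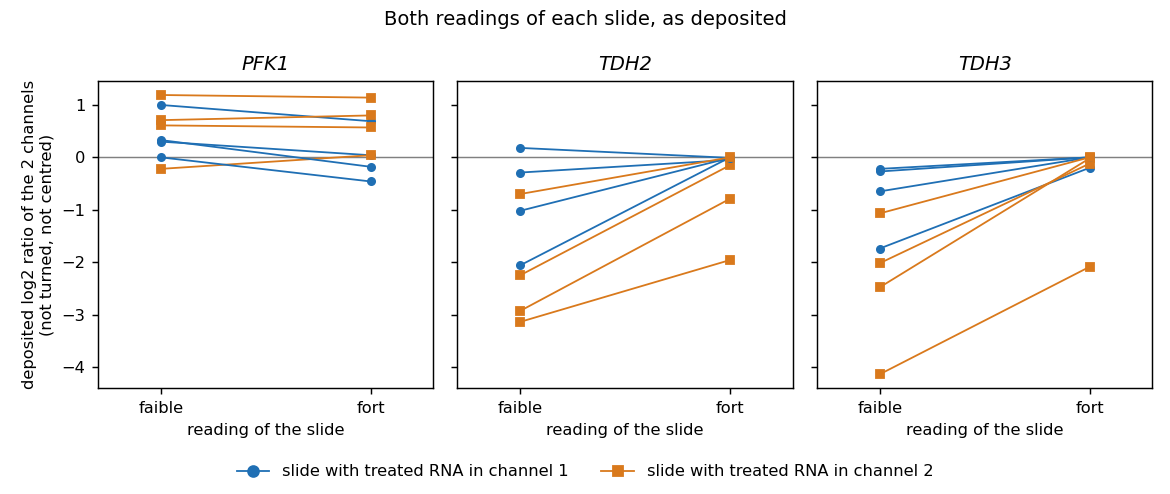
Deposited log2 ratio of the 2 channels (y axis, neither turned nor centred) of PFK1, TDH2 and TDH3 in the faible and the fort reading of each slide (x axis), with a line joining the readings of 1 slide, blue for channel 1 and orange for channel 2 slides. PFK1 has 0 of 8 fort readings within 0.02 of 0, whereas TDH2 has 4 and TDH3 5. In faible readings TDH2 and TDH3 reach as low as -3.14 and -4.14.

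After turning and centring, the difference between readings was as follows. For TDH2 the faible value exceeded the fort value by 2.32, 1.22, 2.47 and 0.90 at 1, 2, 4 and 6 h on the channel 2 slides. On the channel 1 slides the differences were -2.26, -1.46, -0.53 and -0.12. For TDH3 they were 2.08, 2.09, 2.83 and 1.27, and -1.74, -1.10, -0.56 and -0.53. For PFK1 they ran from -0.14 to 0.46, and for the median spot their absolute size was 0.13 to 0.21.

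The estimated channel effect was thus of different size in the readings. On faible readings alone the orientation coefficient was -1.58 ± 0.36 for TDH2 (SE, limma adjusted p = 0.0439) and -1.62 ± 0.27 for TDH3 (adjusted p = 0.0279). On fort readings alone it was -0.17 ± 0.18 (adjusted p = 0.509) and -0.10 ± 0.18 (adjusted p = 0.712). The difference between readings was not tested. The response of TDH3 in the mean was 0.64 on faible and 0.09 on fort readings (adjusted p = 0.195 and 0.726), and that of TDH2 0.51 and 0.19 (adjusted p = 0.411 and 0.429). At 4 h the faible and fort estimates were 0.53 and -0.43 for TDH2 and 0.66 and -0.47 for TDH3, none of which passed. The negative fort estimates come from the centring, since the deposited fort ratios of 4 h were -0.05 and -0.15 for TDH2 and 0.00 and -0.02 for TDH3, and reading medians of 0.02 and 0.95 were subtracted after turning. Their sign thus depends on the centring, and whether they reflect the TDH2 or TDH3 RNA itself was not tested. PFK1 passed in the mean on either reading, at -0.30 (adjusted p = 0.0327) and -0.47 (adjusted p = 0.00893).

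The rest of the pathway was described from lists chosen by function. Of 20 glycolysis genes listed, 14 were measured, and in the mean 1 rose and 1 fell. GPM2, a minor homologue of phosphoglycerate mutase, rose by 0.89 ± 0.08 (SE, limma adjusted p = 4.52e-04, above 0 on 8 of 8 slides), and PFK1 was the one that fell. The 14 genes had a median of -0.03, against 0.01 for all genes. In the background, 6.97% of all genes were called higher and 11.8% lower. Among the others, the hexokinase gene HXK2 stood at -0.41 ± 0.23 (adjusted p = 0.244), the phosphoglucose isomerase gene PGI1 at -0.23 ± 0.24 (0.493) and the aldolase gene FBA1 at -0.03 ± 0.25 (0.940). TPI1 was at 0.02, TDH1 at 0.19, the main phosphoglycerate mutase gene GPM1 at -0.09, GPM3 at -0.04, ENO1 at -0.21, and the pyruvate kinase genes CDC19 and PYK2 at -0.15 and 0.22 (adjusted p from 0.0876 to 0.876).

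**Figure D3:**
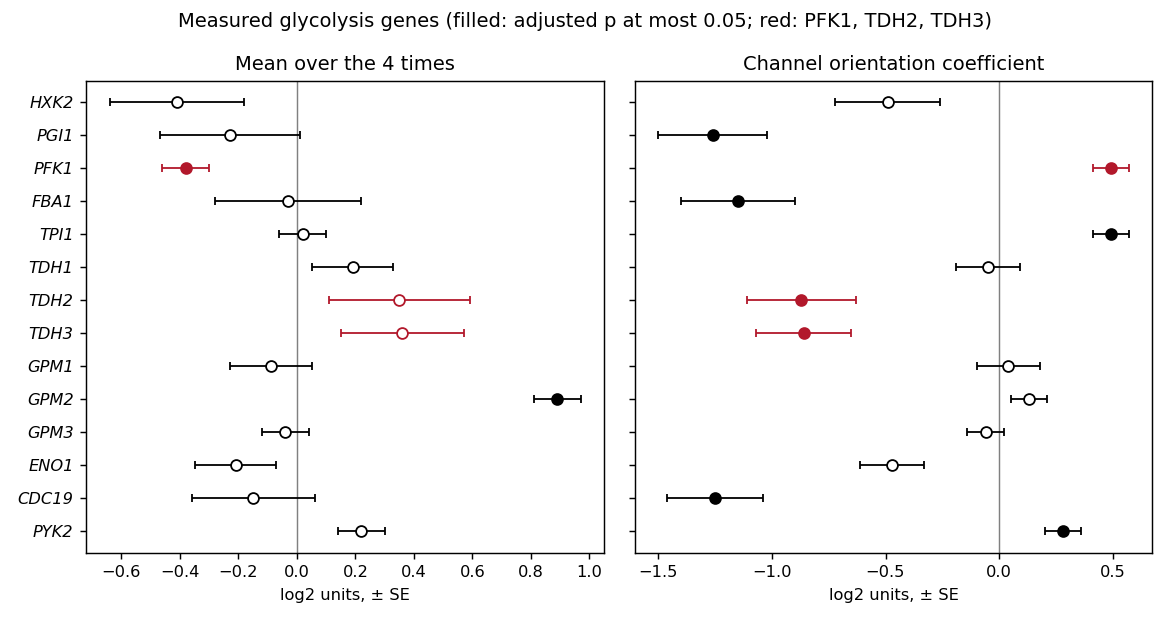
Estimates ± SE (x axes, log2 units) for the 14 measured glycolysis genes in pathway order, for the mean over the 4 times on the left and for the channel orientation on the right. Filled points passed at an adjusted p of at most 0.05 and red marks PFK1, TDH2 and TDH3, which lie at -0.38, 0.35 and 0.36 in the mean and at 0.49, -0.87 and -0.86 for the orientation.

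Other genes of the pathway had orientation coefficients of either sign. Of the 14 genes, 5 passed with a negative coefficient, namely PGI1 (-1.26 ± 0.24, SE, limma adjusted p = 0.0239), CDC19 (-1.25 ± 0.21, 0.0214), FBA1 (-1.15 ± 0.25, 0.0268), TDH2 and TDH3. Another 3 passed with a positive one, namely PFK1, TPI1 (0.49 ± 0.08, 0.0214) and PYK2 (0.28 ± 0.08, 0.0473). TDH1 was at -0.05 ± 0.14 (0.841), although its spot may also take up RNA of TDH2 and TDH3. Beside these counts, 10.0% of all genes passed below 0 and 7.23% above.

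At 2 h most estimates of the glycolysis genes stood above the median gene, though many rested on 1 of the 2 slides. Of the 14 estimates 13 were above 0, with a median of 0.79, against -0.00 for all genes. Only 1 passed (GPM2, 1.51 ± 0.17, SE, limma adjusted p = 0.00550), where 4.19% of all genes passed. ENO1 was at 1.10 (adjusted p = 0.0714), CDC19 at 1.35 (0.135) and TDH1 at 0.95 (0.125). The slides of 2 h differed, with a median over the 14 genes of -0.13 on the channel 1 slide and 1.43 on the channel 2 slide. Both slides were above 0 for 6 of the 14 genes, PFK1, TPI1, TDH1, GPM2, ENO1 and PYK2, as they were for 21.3% of all genes. Both slides were below 0 for GPM3, as for 19.9% of all genes. TDH2 and TDH3 were among the 7 genes whose slides differed in sign. At 6 h both slides were below 0 for 6 of the 14 (HXK2, PFK1, FBA1, GPM1, ENO1 and CDC19), against 33.3% of all genes.

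**Figure D4:**
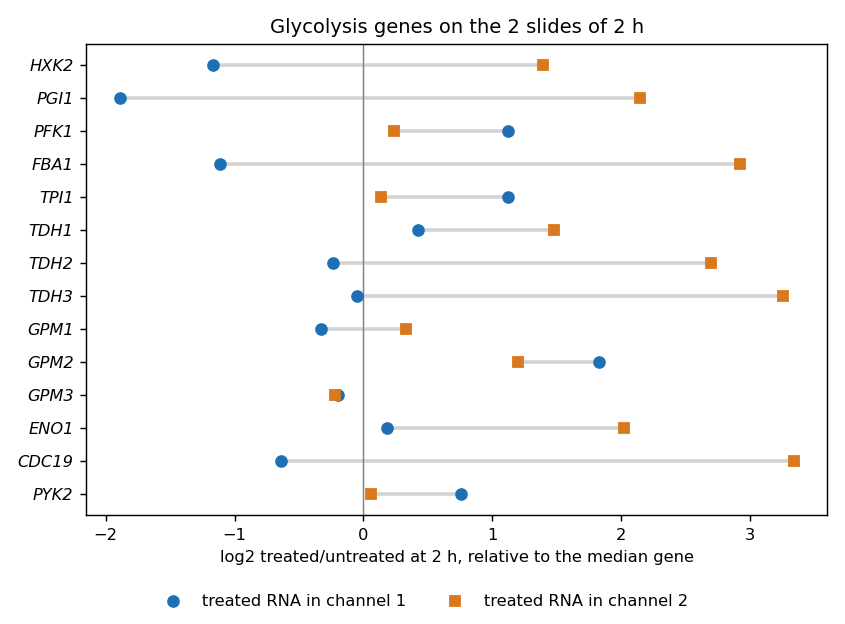
Log2 ratio of treated over untreated RNA at 2 h (x axis, relative to the median gene) of the 14 measured glycolysis genes, with a circle for the channel 1 slide and a square for the channel 2 slide. PFK1 and GPM2 are above 0 on both slides, while TDH2 and TDH3 stand at -0.24 and -0.05 on one and at 2.70 and 3.26 on the other.

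Some genes around the pathway also passed. PFK26, which makes fructose 2,6-bisphosphate, the activator of phosphofructokinase, rose in the mean by 0.77 ± 0.09 (SE, limma adjusted p = 0.00107, above 0 on 8 of 8 slides) and at 2 h by 1.73 ± 0.18 (adjusted p = 0.00411). It was the 1 gene of 3 in its list that passed, with PFK27 at -0.01 and FBP26 at 0.17, and it lost the call in the mean when each pair of slides was averaged first (adjusted p = 0.0717). In the mean 6.97% of all genes were called higher and 11.8% lower. Of 4 measured genes for transcription factors that act at glycolytic promoters, RAP1 (-0.73 ± 0.08, adjusted p = 9.09e-04) and REB1 (-0.69 ± 0.10, adjusted p = 0.00318) fell in the mean. Both were below 0 on 8 of 8 slides once centred on the median gene, and their slide signs without centring were not examined. Over 18 alternatives, values as deposited among them, the mean ran from -0.89 to -0.54 for RAP1. For REB1 it ran from -0.82 to -0.50. GCR2 and ABF1 were at -0.09 and -0.23 and did not pass.

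Branches that leave glycolysis at its upper end held further calls in the mean, to be read against the 6.97% of all genes called higher and 11.8% called lower. In the pentose phosphate list 4 of 7 measured genes rose, ZWF1 (0.73), SOL4 (1.03), GND2 (0.32) and NQM1 (0.42), and RKI1 fell (-0.55). Of these ZWF1 encodes the entry enzyme, glucose-6-phosphate dehydrogenase, and GND2 a 6-phosphogluconate dehydrogenase. In the trehalose and glycogen list 3 of 7 rose, the trehalose synthase gene TPS1 (0.75), the phosphoglucomutase gene PGM2 (1.05) and the glycogenin gene GLG2 (0.35). GPD1, the glycerol-3-phosphate dehydrogenase gene at the start of glycerol synthesis, rose by 0.51, 1 of 2 measured in its list. Of 10 measured hexose transporter and sensor genes HXT9 (0.42) and HXT11 (0.38) rose. The estimates of these genes ran close together, at 0.47 and 0.46 at 4 h and 0.74 and 0.67 at 6 h. Whether RNA of one hybridised to the spot of the other was not tested, so the calls may not be independent. The 7 genes from pyruvate to ethanol and the 5 of gluconeogenesis gave 0 calls by limma. Of them, 2 and 3 had an unadjusted p below 0.05, as did 1037 of all 3127 genes. Of 18 alternatives, GLG2, GND2, NQM1, HXT9 and HXT11 lost the call in 8, 9, 5, 7 and 11, GPD1, ZWF1 and RKI1 in 1 each, and TPS1, PGM2 and SOL4 in 0.

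The genes whose slide profile was most like that of each member were found by Pearson correlation over the 8 slides. For PFK1 they were ADE6, PBP4, ECM3, DAP1 and STU1, at 0.975 to 0.990. For TDH2 they were NUP84, YPK1, RPL4B, IDP1 and GRS1, at 0.978 to 0.988. For TDH3 they were COP1, LEU1, TRP5, RPS14B and HAP4, at 0.981 to 0.986. TDH3 was only the 26th gene most like TDH2, and TDH2 the 29th most like TDH3. After each gene's orientation coefficient was subtracted, 3 of the 5 genes stayed for PFK1 and TDH2 and 4 for TDH3. TDH2 and TDH3 then correlated at 0.918, and PFK1 correlated with them at 0.548 and 0.734.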

How the data were processed

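Per the labels' protocols, the RNA came from an RNeasy kit and was labelled by an indirect method. The authors deposited 1 log ratio per spot and reading, with 2 decimals and an unstated base, which was read as log2. The largest absolute value is 6.16. A natural logarithm is possible, and the folds would then be larger. Background correction and normalization are not given in the sources used here, and reading medians as deposited ran from -1.03 to 0.45. Signal over background is unknown.

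Of 6912 spots 3344 name 1 gene, 387 several and 3181 none. A gene number matched 3343 of the 3344 to a RefSeq gene, and spots of a gene were averaged. Readings were turned to treated over untreated, centred on the median of the single-gene spots and averaged per slide. Genes were fitted in R 4.3.3 with limma 3.58.1, with 1 coefficient for each time and 1 for the channel orientation (3 residual and 4.89 prior degrees of freedom), two-sided tests, and Benjamini-Hochberg adjustment over 3127 genes at a threshold of 0.05. Alternatives changed centring, normalization, readings, orientation term, averaging, moderation and slides. The members, lists and tests were chosen with earlier results of these data known. The naming rule took the members, the pathway genes that passed, all measured glycolysis genes, and the 5 most similar genes per member. No promoter was searched for motifs.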

Additional observations from a re-analysis of the deposited data

Results flagged for a closer look

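Centred on the median gene, PFK1 stood above 0 on both slides of 2 h and below 0 on both slides of each other time. As deposited, the channel 1 slides of 1 h and 6 h were at 0.17 and 0.08. The shared sign of the slides at these times thus rests on the centring. The estimates kept their signs as deposited, at -0.50, 0.47, -0.49 and -0.26 at 1, 2, 4 and 6 h. Uncentred, 2 h minus the other times was 0.88 (limma adjusted p = 0.0378), where the median gene stood at -0.50 and 657 genes passed. With centring, the estimate at 2 h exceeded that at 1 h by 1.38 on the log2 scale. The 4 h estimate differed from that at 2 h by -1.64 and the 6 h estimate by -1.24. These pairwise differences were not tested. The comparison of 2 h with the mean of the other times, which was added after the data were seen, bears on them in part (1.42, limma adjusted p = 0.0295). No group had 4 slides, so single slides could not be tested as outliers.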

How the results depend on the processing

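No paired analysis was possible because the labels give slides of different times no shared replicate number. Both RNAs of a comparison shared the slide. The precision is limited by 8 slides and by unknown signal over background. With 1 slide left out, the lone slide of that time is assumed to vary like the others. Where a call or a sign changed, the cause was not tested beyond the number of slides or spots that the alternative itself changes.

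For PFK1, 4 and 6 h minus 1 and 2 h kept its sign and failed the threshold in 18 of 18 alternatives. Its mean was -0.38 with no orientation term (adjusted p = 0.311), -0.38 with each pair of slides averaged and -0.20 on values as deposited (0.255), and from -0.42 to -0.35 with 1 slide left out. Its 4 h estimate was -0.96 with no orientation term (0.497), -0.49 as deposited (0.150) and from -1.06 to -0.86 with 1 slide left out. PFK1 gained the call at 1 h after quantile normalization (-0.89, 0.0192), at 2 h on faible readings (0.72, 0.0488), and at 6 h with centring within print blocks, an alternative chosen after seeing the data (-0.66, 0.0373), and on the slides of 4 and 6 h alone (-0.56, 0.0219). At 2 h minus the other times it was 1.15 within print blocks (0.111), 1.42 with no orientation term (0.484) and from 1.35 to 1.48 with 1 slide left out. Its orientation coefficient was 0.46 to 0.52 with 1 slide left out.

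As deposited, TDH2 was at 1.02 at 2 h (0.00656), 0.22 at 6 h and 0.54 in the mean (0.00101), and TDH3 at 0.05 at 1 h, 1.39 at 2 h, 0.21 at 6 h, 0.55 in the mean (7.28e-04) and 1.12 at 2 h minus the other times (0.0172). After quantile normalization TDH3 was at 0.91 at 2 h (0.0461). TDH2 at 4 h was 0.00 when centred on all spots, -0.06 within print blocks and -0.43 on fort readings, where TDH3 was at -0.47 (signs set by the centring of deposited ratios near 0). On faible readings TDH2 and TDH3 at 6 h were at 0.11 and 0.09. The orientation coefficients of TDH2 and TDH3 lost the call when centred on all spots (-0.90 and -0.89), within print blocks (-0.78 and -0.84), on fort readings (-0.17 and -0.10) and with robust moderation (-0.87 and -0.86). With 1 slide left out, TDH2 ran from -0.68 to 1.11 at 1 h, -0.60 to 0.70 at 4 h, -1.13 to 0.96 at 6 h and -1.13 to -0.65 for orientation. TDH3 ran from -0.49 to 0.19 at 1 h, 0.55 to 2.67 at 2 h, -0.53 to 0.72 at 4 h, -0.87 to 0.69 at 6 h, 0.10 to 0.63 in the mean, 0.60 to 2.72 at 2 h minus the other times and -1.06 to -0.60 for orientation.

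Counts of genes passing at 1, 2, 4 and 6 h were 25, 131, 88 and 188. They were 86, 237, 726 and 362 as deposited (46, 87, 668 and 256 higher, against 8, 104, 19 and 52) and 163, 127, 315 and 404 after quantile normalization (58 of the 127 higher). Centred on all spots they were 1, 81, 57 and 138, and within print blocks 12 and 50 at 1 and 2 h. Faible readings gave 5, 74, 42 and 109 and fort readings 47, 167 and 290 at 1, 4 and 6 h. With no orientation term 0, 5, 1 and 28 passed. The slides of 4 and 6 h alone gave 515 and 899. With 1 slide left out the ranges were 0 to 86, 82 to 129, 0 to 233 and 0 to 382.

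In the mean 587 passed, against 1042 as deposited, 255 with no orientation term, 311 with each pair of slides averaged and 241 to 814 with 1 slide left out. For 4 and 6 h minus 1 and 2 h, 0 passed, against 66 after quantile normalization, 78 as deposited and 0 to 137 with 1 slide left out. For the orientation 540 passed, against 352 centred on all spots, 347 on faible readings, 978 after quantile normalization and 0 to 280 with 1 slide left out. As deposited 608 passed for it, 39 of them above 0, against 226 of 540. For 2 h minus the other times 23 passed, against 6 centred on all spots, 0 within print blocks and with no orientation term, 37 with every spot on its own and after quantile normalization, 7 on faible and 38 on fort readings, 657 as deposited (43 higher) and 0 to 209 with 1 slide left out.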
